A study of Mus musculus with 69 samples.

Results

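The lungs of 5 mice given 54 µg of the nanomaterial NRCWE-030 were compared with the lungs of 5 mice given vehicle, 1 day after a single intratracheal instillation, gene by gene over the whole array. These 10 arrays were chosen by their labels, material, dose and day, out of 69 in the series. NRCWE-030 is a nano-sized titanium dioxide (nano-TiO2), and the study also instilled it at 18 and 162 µg and tested a second nano-TiO2, NRCWE-025, at the same doses, with lungs taken on days 1 and 28. All mice were female C57BL/6, 5 to 7 weeks old on arrival and acclimatised for 1 to 3 weeks, and the particles were suspended in water with 2% serum, which alone was the vehicle of the controls. The control mice of a day served both materials. A small piece of frozen lung was extracted from each mouse, so that each array is 1 animal and the values average over every cell type in that piece. Expression is given as the log2 ratio of lung RNA, labelled with Cy5, to a commercial pool of mouse RNA, labelled with Cy3, which was the same on every array. A gene was called when the Benjamini-Hochberg adjusted p of limma's test over all 18660 genes was under 0.05, in 1 fit of the control, 18, 54 and 162 µg groups (20 arrays). A difference is the mean at 54 µg minus the mean of the controls on the log2 scale, with its standard error (SE).

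The airways and alveoli answer deposited particles with the same early programme that meets microbes. Resident macrophages and epithelial cells release chemokines that draw in neutrophils and monocytes, and the tissue makes acute phase proteins, secreted proteins of the first line of defence that are otherwise known mainly from the liver. Serum amyloid A proteins (Saa1, Saa2, Saa3) bind lipids and attract leukocytes, and lipocalin 2 (Lcn2) withholds iron from bacteria by binding their siderophores. In rodents Saa3 is the member of its family made largely outside the liver.

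At 54 µg of NRCWE-030, 15 of 18660 genes were called (0.0804%), 8 higher (0.0429%) and 7 lower (0.0375%) than in the controls. Of the 15, the 4 with the largest differences were acute phase genes, Saa3, Saa1, Saa2 and Lcn2, and none of the others rose by more than 1.79 on the log2 scale. The genes that fell did so by less, between 0.44 and 1.12. At an unadjusted p under 0.05 there were 1634 genes (8.76%), against 933 expected by chance, with 740 higher (3.97%) and 894 lower (4.79%). The groups did not overlap for 197 genes that were higher (1.06%) and 174 that were lower (0.932%). The median difference over all genes was -0.01.

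Between 54.4% and 65.4% of spots were well above background in Cy5 on the 10 arrays, and no spot was saturated. Markers of alveolar type 1 and 2, club, ciliated and endothelial cells were well above background on all 10 arrays. In the reference channel of control replicate 3 the fitted background mean was 51.8, against 1.41 to 9.64 on the other 9 arrays. This went with its scan day. The arrays of its slide, of mice given NRCWE-025 apart from this control, ran from 51.3 to 59.5. Those of the other slide scanned that day ran from 82.4 to 94.6. That slide held day 28 mice, among them control replicate 3 and replicate 2 at 54 µg of NRCWE-030. None of the other 9 arrays shared its slide or scan day. The same mouse stood apart from the other controls in the clock genes described below, and whether slide or scan day bears on that was not tested. Heart muscle markers (11 genes, mean log2 ratio) reached 4.63 in control replicate 2 and 3.11 in replicate 5 at 54 µg, against 0.38 to 2.17 in the other controls and 0.10 to 1.59 in the other exposed mice. Fat markers (7 genes) were at 3.62 in control replicate 2 and between 0.12 and 1.77 in the other 9. Of the 4 liver markers, albumin (Alb) was highest in replicate 2 at 54 µg, at 4.27, against 0.16 to 0.66 in the controls and 0.50 to 2.15 in the other exposed mice. The 10 arrays lay on 7 slides, of which 3 held both groups, with 1 array of each.

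Saa3 had the largest difference of the called genes. Its log2 ratio was -2.68, -1.91, -2.55, -3.25 and -2.69 in control replicates 1 to 5. In the exposed mice it was 1.69, 2.83, 4.22, -0.39 and 4.98. The lowest exposed mouse, replicate 4, lay 1.52 above the highest control, so that the groups did not overlap, although the exposed mice spread over more than 5 log2 units among themselves. The mean rose from -2.62 ± 0.48 (SD, n = 5) to 2.67 ± 2.12 (SD, n = 5), a difference of 5.28 (SE 0.82, adjusted p = 0.0122), or 38.9-fold.

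Saa1 and Saa2 are neighbouring genes that encode close copies of one another, and whether their probes bind each other's RNA was not tested. Saa2 stood between 0.02 and 0.38 in the controls, and at 2.71, 3.49, 3.88, 1.06 and 4.18 in exposed replicates 1 to 5. It rose by 2.85 (SE 0.39, adjusted p = 0.00671), or 7.23-fold. Saa1 stood between -0.51 and 0.13 in the controls and at 2.16, 3.28, 4.34, 0.52 and 4.67 in the same exposed mice. It rose by 3.16 (SE 0.53, adjusted p = 0.0239), or 8.92-fold, and its 2 probes differed by 2.90 and 3.41. The order of the 5 exposed mice was the same for all 3 serum amyloid genes, with replicate 5 highest, then 3, 2 and 1, and replicate 4 lowest.

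Lcn2 was the most uniform of the 4. It was 1.57, 2.17, 2.07, 1.79 and 1.25 in the controls and 4.14, 4.80, 4.75, 3.02 and 4.31 in the exposed mice. No exposed mouse lay within the range of the controls, and replicate 4 was again the lowest. The mean rose from 1.77 ± 0.38 (SD, n = 5) to 4.20 ± 0.72 (SD, n = 5), by 2.43 (SE 0.34, adjusted p = 0.00671), or 5.40-fold.

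**Figure D1:**
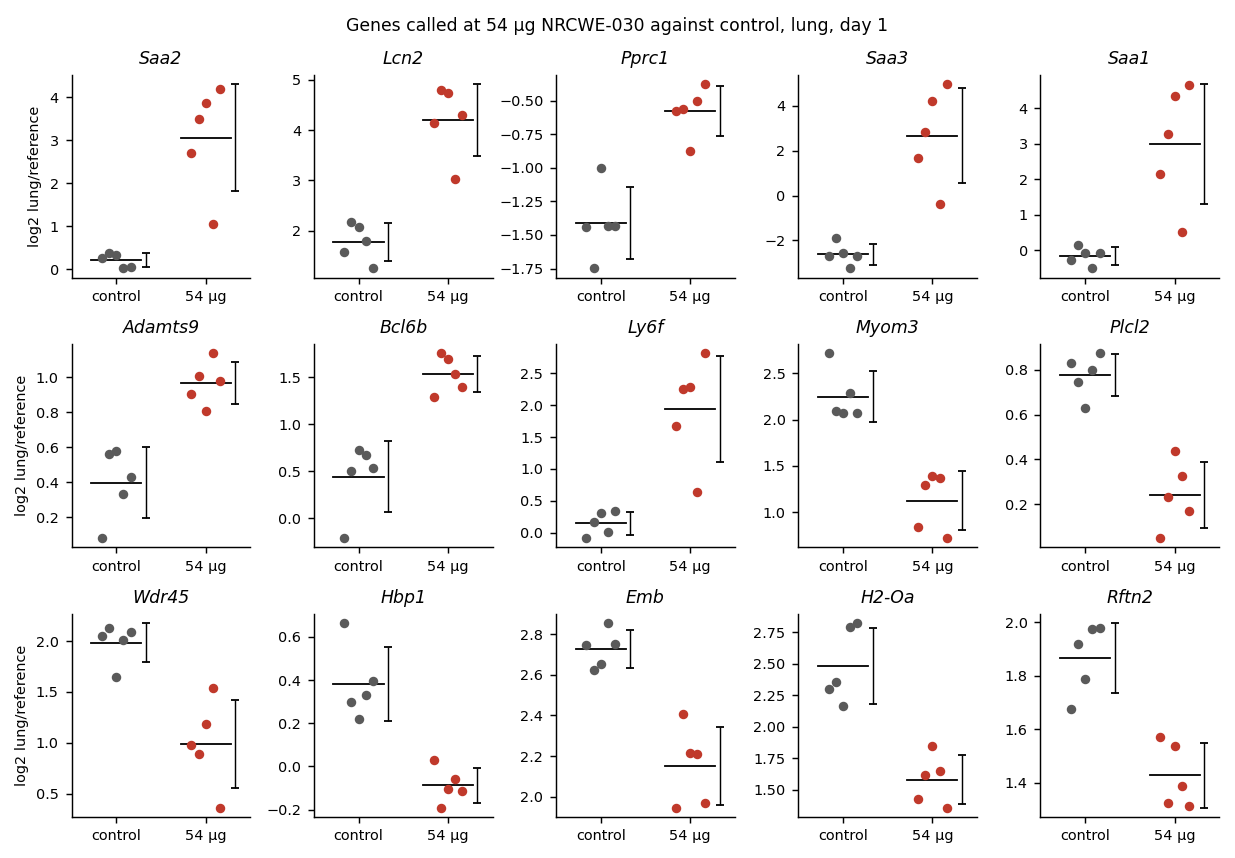
Log2 ratio of lung to reference (vertical axes, which differ between panels) for the 15 genes called at 54 µg of NRCWE-030 against control on day 1. Points are single mice, 5 per group in the order of their replicate numbers, lines are means and bars are 1 SD. The groups do not overlap in any of the 15 panels, and in Saa1, Saa2, Saa3, Lcn2 and Ly6f one exposed mouse, replicate 4, lies below the other 4.

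The bases just upstream of the start of these 4 genes are shown because they moved together and because acute phase promoters are known for C/EBP sites, sequences bound by a family of factors that includes Cebpb and Cebpd. The sequences are from RefSeq (GRCm38.p6), 250 bases ending at the base before the annotated start, written 5′ to 3′ on the strand of the gene. They are Saa3 at chr7:46715677-46715926 (minus strand), Saa1 at chr7:46742981-46743230 (minus strand), Saa2 at chr7:46751583-46751832 (plus strand) and Lcn2 at chr2:32387740-32387989 (minus strand). Capitals mark the letters TTGCNNAA, a C/EBP-type pattern, on either strand.
Saa3: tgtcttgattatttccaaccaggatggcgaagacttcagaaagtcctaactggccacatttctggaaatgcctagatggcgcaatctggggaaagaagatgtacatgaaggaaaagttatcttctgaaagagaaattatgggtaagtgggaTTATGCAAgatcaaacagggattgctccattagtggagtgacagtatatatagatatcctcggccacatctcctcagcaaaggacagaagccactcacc
Saa1: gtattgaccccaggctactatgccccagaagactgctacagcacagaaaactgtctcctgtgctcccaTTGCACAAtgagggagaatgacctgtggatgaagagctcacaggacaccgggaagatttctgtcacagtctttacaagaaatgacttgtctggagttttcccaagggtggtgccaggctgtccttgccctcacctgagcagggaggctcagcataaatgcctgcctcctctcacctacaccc
Saa2: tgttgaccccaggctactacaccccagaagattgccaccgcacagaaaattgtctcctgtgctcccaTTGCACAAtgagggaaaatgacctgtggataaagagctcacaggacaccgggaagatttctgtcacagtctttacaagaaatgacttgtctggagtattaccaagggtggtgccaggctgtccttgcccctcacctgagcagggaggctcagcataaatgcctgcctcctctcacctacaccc
Lcn2: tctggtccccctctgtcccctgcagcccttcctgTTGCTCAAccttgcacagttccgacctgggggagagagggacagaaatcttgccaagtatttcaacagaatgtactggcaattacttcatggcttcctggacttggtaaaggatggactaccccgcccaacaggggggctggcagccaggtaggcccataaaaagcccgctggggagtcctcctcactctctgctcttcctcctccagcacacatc

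Each of the 4 windows held the pattern once, as did that of Ly6f, while the other 7 called genes with a start in the table held none at the first start listed. Of the genes read that were not called, Saa4, Orm2 and Hpx also held it, and Timp1, Noxo1 and Il1rn did not. Of all 32851 windows of this length, 9.56% held it. The Saa1 and Saa2 windows were identical at 238 of 251 aligned columns (94.8%), so they are not separate instances, and Saa1 and Saa3 were identical at 130 of 268 columns (48.5%). The letters TTCCNGGAA, of the STAT type and in 0.913% of all windows, were in none of the 4 on either strand. Of the 5 patterns searched, those of the NF-kB, E-box and D-box type were in none of the 4 either. The patterns were chosen after the called genes were known, and a match is a string of letters and not a measured binding site.

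The other acute phase genes on the array were not called. Of 22 genes of the list with a value, 4 were called, all higher, 10 were higher and none lower at an unadjusted p under 0.05, and the median difference was 0.54, against -0.01 over all genes. At that unadjusted threshold 3.97% of all genes were higher and 4.79% lower. Orm2, an orosomucoid that carries small lipophilic ligands in plasma, was 0.12, 1.41, 0.20, -0.10 and -0.03 in the controls and 2.62, 3.36, 3.64, 0.67 and 4.40 in the exposed mice. Its difference was 2.61 (SE 0.51, adjusted p = 0.0584), replicate 4 lay within the controls, and the probe was well above background in only 1 of 5 controls. Orm1 was 1.48 higher (SE 0.35, adjusted p = 0.099). Hpx, which binds free haem, was between -0.23 and 0.38 in the controls and at 0.51, 2.37, 1.57, 0.41 and 2.11 in the exposed mice, a difference of 1.23 (SE 0.42, adjusted p = 0.331). Il1rn, the natural antagonist of the interleukin-1 receptor, was 0.54 higher (SE 0.11, adjusted p = 0.0698) as the median of 2 probes, of which one differed by 1.03 and the other, well above background on 1 of 10 arrays, by 0.05. Crp, Apcs and Fga were not called, and they were well above background on at most 1 of the 10 arrays. Fgb was 3.19 in exposed replicate 2, the mouse with the high albumin value, and between -0.16 and 0.83 in the other 9 mice. The part of liver RNA in the acute phase results was not tested.

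Among the other 4 genes that rose, Ly6f, a member of the Ly6 family of small membrane-anchored proteins, followed the acute phase genes across mice. It was between -0.09 and 0.34 in the controls and at 1.68, 2.26, 2.29, 0.64 and 2.82 in the exposed mice, a rise of 1.79 (SE 0.33, adjusted p = 0.0423). Pprc1, a coactivator related to PGC-1 that takes part in mitochondrial gene expression, was -1.44, -1.75, -1.0, -1.43 and -1.43 in the controls. In the exposed mice it was -0.57, -0.56, -0.88, -0.50 and -0.37. It rose by 0.83 (SE 0.13, adjusted p = 0.0122), with replicate 3 of each group closest to the other group. Bcl6b, a zinc finger repressor related to Bcl6, rose by 1.09 (SE 0.20, adjusted p = 0.0423), from between -0.21 and 0.73 to between 1.30 and 1.76. Adamts9, a secreted metalloproteinase that cleaves proteoglycans, rose by 0.57 (SE 0.10, adjusted p = 0.0269). One of its 2 probes differed by 1.02 and was well above background on all 10 arrays, and the other differed by 0.12 and was well above background on 2.

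The 7 genes that fell do not share a function. Myom3, a structural protein of the sarcomere's M-band, was 2.72, 2.09, 2.07, 2.28 and 2.08 in the controls and 0.84, 1.29, 1.39, 1.38 and 0.72 in the exposed mice, and fell by 1.12 (SE 0.16, adjusted p = 0.00671). The heart muscle markers were highest in control replicate 2 and exposed replicate 5, where Myom3 stood at 2.09 and 0.72. Skeletal muscle markers (6 genes, mean log2 ratio) were also highest of their groups in these mice, at 0.11 and -0.32. The part of muscle tissue in the Myom3 values was not tested. Wdr45, a protein of autophagosome formation, fell by 0.99 (SE 0.16, adjusted p = 0.013), from between 1.65 and 2.13 to between 0.36 and 1.54. H2-Oa, which encodes a chain of the H2-O molecule that moderates peptide loading of MHC class II in B cells, was 2.30, 2.35, 2.16, 2.79 and 2.82 in the controls. It was 1.43, 1.61, 1.85, 1.65 and 1.36 in the exposed mice and fell by 0.91 (SE 0.16, adjusted p = 0.028). The other 4 fell by between 0.44 and 0.58. They were Emb, a cell adhesion glycoprotein (-0.58, adjusted p = 0.0269), and Plcl2, a phospholipase C-like protein (-0.53, adjusted p = 0.0123). The last were the transcriptional repressor Hbp1 (-0.47, adjusted p = 0.0265) and Rftn2, a raft-associated protein (-0.44, adjusted p = 0.0307). For each of these 4 the groups did not overlap, and the gap between them was at most 0.21 on the log2 scale.

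Of the slides, 3 held an exposed and a control array. For Saa3 the differences within these slides were 3.60, 6.08 and 7.67, and for Lcn2 they were 1.96, 3.01 and 3.06. Myom3 differed by -1.25, -0.99 and -1.35 and H2-Oa by -0.93, -1.18 and -1.47. Each within-slide value is 1 mouse against 1 mouse. With slide as a fixed block the count was 65 genes (30 higher, 35 lower), 13 of them among the 15, and with slide as a random block it was 118 (60 higher, 58 lower), with all 15 among them.

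The count depended on single mice. Without control replicate 3 it was 66 (38 higher, 28 lower, all 15 among them), and without replicate 3 of the 18 µg group, which enters only through the shared spread, it was 46. It was 23 without control replicate 1 or without exposed replicate 4. It fell to 3 without control replicate 4, and to 5 without control replicate 5 or exposed replicate 5. Saa2, Lcn2 and Myom3 were called in all 20 fits that left out 1 array, Saa3 in 19 and Saa1 in 16, whereas Bcl6b was called in 6 and Ly6f in 7. Of the 13 other alternatives, Lcn2 was called in all, but Emb, H2-Oa, Rftn2 and Bcl6b in 6 each and Adamts9 in 7. Fitted on these 10 arrays alone, the comparison gave 2 calls, and limma's fit of all 69 arrays gave 100 (50 of them higher), 14 of which were among the 15.

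A further 10 genes, not called, were taken by size among those with an unadjusted p under 0.05 and no overlap between the groups. They also had to be well above background on every array of the higher group. The lack of overlap is thus a condition of the choice, and larger differences that did not meet these conditions, such as that of Orm2, are left out. Timp1, an inhibitor of matrix metalloproteinases, was -2.15, -2.08, -2.35, -2.42 and -2.19 in the controls and -0.80, -0.08, 1.15, -1.49 and 1.66 in the exposed mice. The mice kept the order they had for the serum amyloid genes. The difference was 2.33 (SE 0.46, adjusted p = 0.0584), and its 2 probes differed by 1.65 and 3.01. Noxo1, an organiser of an NADPH oxidase of epithelia, was between -0.20 and 0.31 in the controls and at 1.68, 1.90, 1.63, 0.89 and 2.75 in the exposed mice, a difference of 1.79 (SE 0.35, adjusted p = 0.0584). Ch25h, which makes the oxysterol 25-hydroxycholesterol, was 1.32 higher (SE 0.30, adjusted p = 0.0875), between 2.90 and 4.11 against 1.60 to 2.27. Rsrp1 was 1.17 higher (SE 0.26, adjusted p = 0.087). Of the genes that were lower, the small proteoglycan decorin, Dcn, differed by -1.16 (SE 0.26, adjusted p = 0.087), with controls between 0.40 and 1.1 and exposed mice between -0.94 and -0.06. Pi16, a gene of adventitial fibroblasts, differed by -1.18 (SE 0.30, adjusted p = 0.129). Within slides its difference ran from -2.27 to -0.04, where Timp1 ran from 1.28 to 3.85. The remaining 4 of the 10 were Hpx and the CC chemokines Ccl7, Ccl17 and Ccl12.

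CC chemokines, which recruit monocytes, eosinophils and lymphocytes, held no called gene. Of 15 measured, 9 were higher and none lower at an unadjusted p under 0.05, 14 lay above the controls in their mean, and the median difference was 0.75. Over all genes 3.97% were higher and 4.79% lower, shares that stand beside the other lists of this paragraph too. Ccl7, a monocyte attractant, was -2.44, -3.08, -3.13, -3.46 and -2.96 in the controls and -1.93, -1.93, -0.97, -2.37 and -0.27 in the exposed mice. The groups were set apart by 0.08 only, and the difference was 1.52 (SE 0.50, adjusted p = 0.287). Ccl17, a ligand of the lymphocyte receptor Ccr4, was between 2.11 and 2.63 in the controls and at 3.59, 3.48, 3.40, 3.22 and 4.21 in the exposed mice. Its difference was 1.17 (SE 0.31, adjusted p = 0.146). Ccl12 was between -0.23 and 0.28 in the controls and between 0.93 and 1.82 in the exposed mice, 1.16 higher (SE 0.28, adjusted p = 0.108). Ccl19, which guides dendritic cells and naive T cells, was 0.79 higher (SE 0.21, adjusted p = 0.156), also without overlap. Ccl5 alone had a mean below the controls, with a difference of -0.49 (SE 0.25), and Ccl22 was not well above background on any of the 10 arrays. CXC chemokines, the main attractants of neutrophils, had 0 of 12 called, 2 higher and none lower at an unadjusted p under 0.05 (Cxcl3 by 0.32 and Cxcl9 by 0.45), and a median of 0.15. Cxcl3 differed by 2.33 with the scanner's own log ratio. Cxcl5 had the largest difference of the list, 1.08 (SE 0.62, adjusted p = 0.69). Neutrophil markers gave 0 calls of 12, 1 higher and none lower at an unadjusted p under 0.05, and a median of 0.05, and the mean over the list was between 1.28 and 1.77 in the controls and between 1.29 and 1.91 in the exposed mice.

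**Figure D2:**
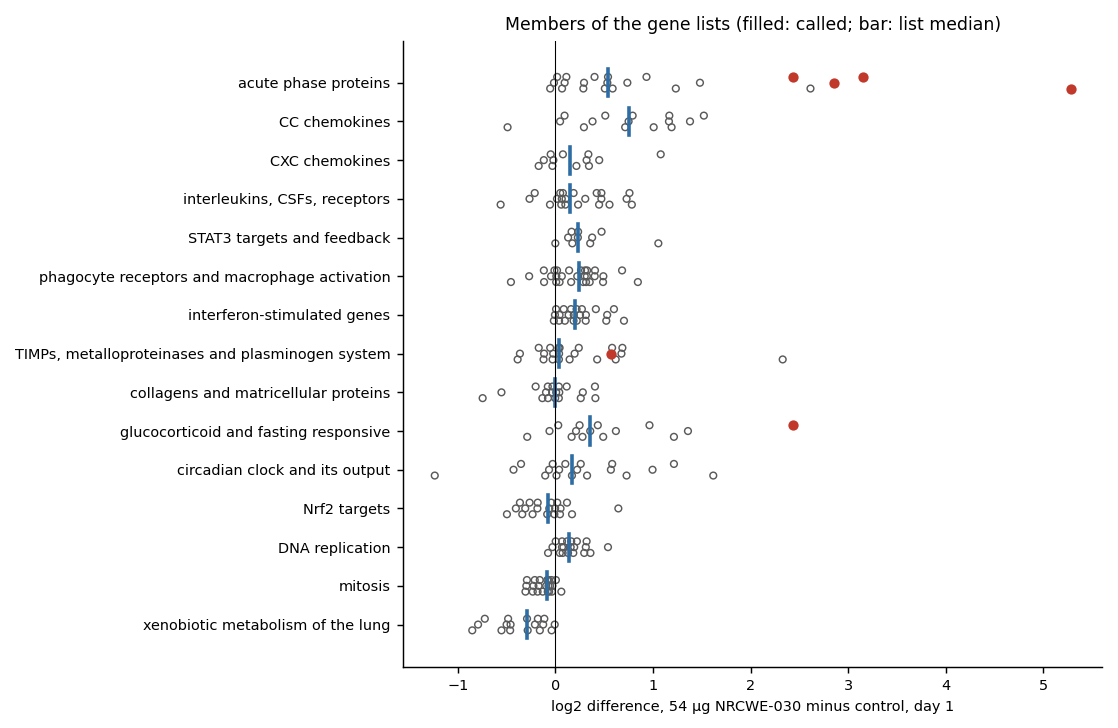
Log2 difference between 54 µg of NRCWE-030 and control on day 1 (horizontal axis) for each measured member of 15 gene lists. Filled points are called genes, open points are not, and the vertical bar is the median of a list. Acute phase proteins reach 5.28 with 4 filled points, CC chemokines lie to the right with none filled, and the clock list spreads to both sides.

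Other lists of the inflammatory response held no called gene beyond those given. Interleukins, colony-stimulating factors and their receptors had 7 of 22 members higher and 1 lower at an unadjusted p under 0.05 with a median of 0.14. The decoy receptor Il1r2 (0.73, adjusted p = 0.144) and the G-CSF receptor Csf3r (0.76, adjusted p = 0.139) came closest. STAT3 targets had 3 of 10 higher and none lower, among them the feedback inhibitor Socs3 (0.47, adjusted p = 0.169) and the C/EBP family member Cebpd (1.06, adjusted p = 0.18). Phagocyte receptors and macrophage activation genes had 8 of 28 higher and 1 lower, with a median of 0.24. Their lowest p belonged to the lectin Clec4d (0.85, adjusted p = 0.116). Interferon-stimulated genes had 3 of 22 higher and none lower, with a median of 0.20. Of the TIMP, metalloproteinase and plasminogen list, 7 of 22 were higher and 2 lower. Adamts9 and Timp1 were among those higher. Collagens and matricellular proteins had 2 of 19 higher and 2 lower, and a median of -0.00275. Mitosis genes had none of 22 past an unadjusted p of 0.05 in either direction, and DNA replication genes had 2 of 20 higher and none lower. Toll-like receptor genes had 3 of 21 higher, complement 1 of 14 higher and 1 lower, leukocyte adhesion 2 of 12 higher and 1 lower, and alternative activation 2 of 10 higher and 1 lower. Stress lists gave immediate early genes 4 of 24 higher, glucocorticoid and fasting responsive genes 6 of 15 higher with Lcn2 the only call, heat shock and cold-inducible genes 5 of 14 higher and 2 lower, sterol genes 1 of 17 higher (Ch25h) and p53 targets 1 of 14 higher and 1 lower. Each of these shares stands beside 3.97% higher and 4.79% lower over all genes.

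Xenobiotic metabolism genes of the lung lay on the other side. All 17 had a mean below that of the controls, 7 were lower and none higher at an unadjusted p under 0.05, none was called, and the median was -0.29. Aox1, an aldehyde oxidase, differed by -0.46 (SE 0.10, adjusted p = 0.0798), and Cyp2s1, a cytochrome P450 of airway epithelium, by -0.72 (adjusted p = 0.295). Club cell and ciliated cell markers, from the cells in which much of this metabolism takes place, gave no call and medians of 0.37 (4 genes) and -0.29 (6 genes). Nrf2 targets had 1 of 20 higher and 4 lower, and metallothioneins and zinc transporters 2 of 11 higher and none lower, with the zinc exporter Slc30a1 at 0.38 (adjusted p = 0.099). Beside the counts of these lists stand 3.97% higher and 4.79% lower over all genes.

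H2-Oa was not alone among genes known from B cells. Of the 6 B cell markers, Ms4a1, which encodes CD20, and Cd79b, part of the B cell receptor, were lower at an unadjusted p under 0.05 and none was higher, with a median of -0.23. Ms4a1 was 0.76, 0.77, -0.24, 0.71 and 1.05 in the controls and -0.25, -0.67, 0.02, -0.45 and -0.22 in the exposed mice. The difference was -0.93 (SE 0.21, adjusted p = 0.0875), and control replicate 3 lay among the exposed mice. Cd79b differed by -0.80 (SE 0.24, adjusted p = 0.225), whereas Cd79a and Blk differed by -0.19 and -0.04, and Pax5 was not well above background on any array. A further 4 genes known from B cells, chosen after their values were seen, had adjusted p between 0.05 and 0.1. They were the chemokine receptor Ccr6 (-0.96, SE 0.19, adjusted p = 0.0607), the IgM receptor Fcmr (-0.79, SE 0.16, adjusted p = 0.0631), the BAFF receptor Tnfrsf13c (-0.99, SE 0.20, adjusted p = 0.0634) and the transcription factor Spib (-0.75, SE 0.16, adjusted p = 0.0798). Over the processing alternatives Fcmr differed by -0.98 to -0.19. The ranges were -1.28 to -0.79 for Ccr6, -1.30 to -0.92 for Tnfrsf13c and -0.96 to -0.69 for Spib. In all 4 genes the lowest control was replicate 3. Without that mouse Ms4a1 differed by -1.14 and Ccr6 by -1.13, given as a description since both the genes and the mouse were picked for their values. T cell markers had 1 of 6 lower and natural killer cell markers 2 of 5 lower at an unadjusted p under 0.05, with no call. Beside these counts and that of the B cell markers stand 4.79% lower over all genes. In whole lung, fewer cells of a type and less RNA per cell cannot be told apart.

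Some clock genes, among them Dbp and Arntl, separated the exposed mice from 4 of the 5 controls. The circadian clock is a loop in which Arntl and Clock drive the Per and Nr1d genes and output factors such as Dbp, whose RNA levels swing over the day in the lung as in other tissues. Dbp was -0.55, -0.69, 2.26, -0.60 and -0.25 in control replicates 1 to 5 and 1.58, 1.81, 1.89, 1.55 and 1.43 in the exposed mice. Arntl was 0.36, 0.47, -1.70, 0.82 and 0.56 in the controls and -1.10, -1.27, -1.07, -1.16 and -1.06 in the exposed mice. Control replicate 3 stood with the exposed mice, or beyond them, in both genes, and the other 4 controls did not overlap with them. With that mouse included, Dbp differed by 1.62 (SE 0.39, adjusted p = 0.111) and Arntl by -1.24 (SE 0.32, adjusted p = 0.13), and none of the 19 genes of the clock list was called, with 8 higher and 2 lower at an unadjusted p under 0.05. Over all genes the shares were 3.97% higher and 4.79% lower.

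The size of these differences turned on that mouse. Without it, Dbp differed by 2.17, Arntl by -1.69, Nr1d2 by 1.34, Per2 by 0.93 (the median of 2 probes) and Per1 by 1.65. With all 5 controls the 2 Per2 probes differed by 1.33 and 0.12, both well above background on all 10 arrays. Without that mouse the other members of the list differed by less. Hlf (0.88) and Bhlhe40 (0.63) were the largest of them, whereas Nr1d1 (0.26), Clock (-0.10), Rora (-0.10) and Cry1 (0.02) differed little. That mouse was singled out by its clock gene values, so these differences are a description and not a test. Within the 3 slides that held both groups, none of which held control replicate 3, Dbp differed by 2.27, 2.41 and 1.67 and Arntl by -1.57, -2.10 and -1.62. The mean of Dbp did not follow the dose. It was 1.81 ± 0.24 (SD, n = 5) at 18 µg, 1.65 ± 0.19 (SD, n = 5) at 54 µg and 1.82 ± 0.38 (SD, n = 5) at 162 µg. With 54 µg of NRCWE-025 it was 0.86 ± 0.59 (SD, n = 5). Dbp and Arntl were also among the 12 genes (0.0643%) called at 54 µg of NRCWE-030 on day 28 against the controls of that day. The hour at which each lung was taken is not given in the sources used here, so hour and exposure cannot be told apart.

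**Figure D3:**
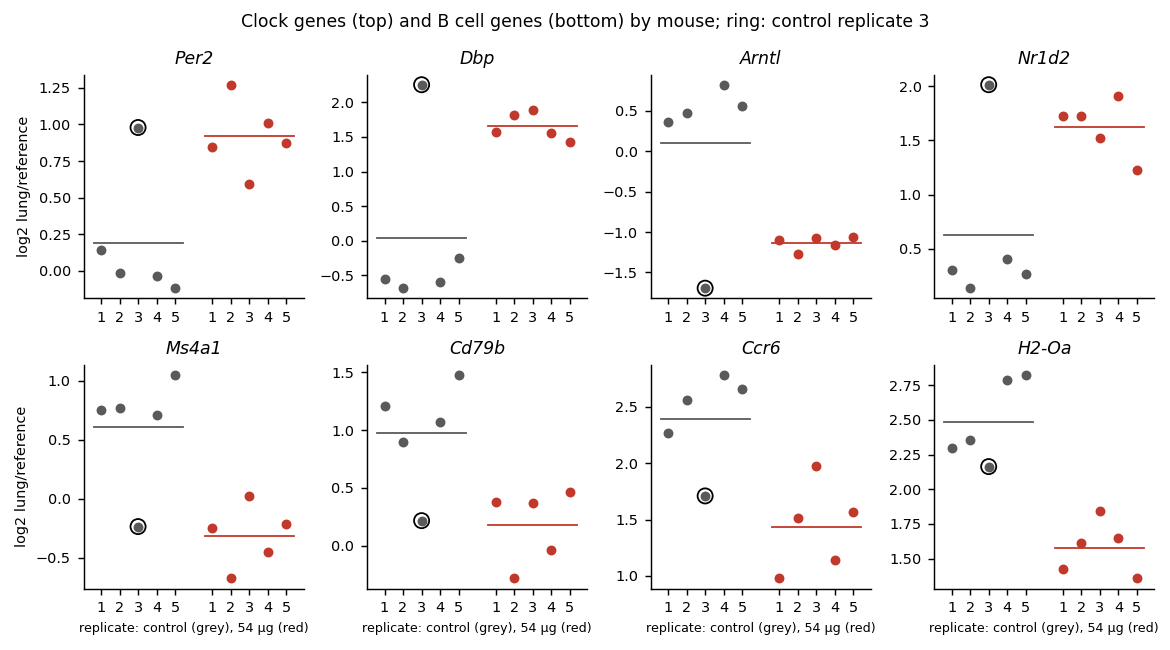
Log2 ratio of lung to reference (vertical axes, which differ between panels) for clock genes, top row, and genes known from B cells, bottom row, by mouse, with control replicates 1 to 5 in grey and the 5 mice at 54 µg in red. Lines are group means and a ring marks control replicate 3. In the top row the ringed mouse stands among or beyond the red points (Dbp 2.26, Arntl -1.70), and in the bottom row it is the lowest control.

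All 7 fat markers had a mean below the controls, 1 of them at an unadjusted p under 0.05, with a median of -0.85. At that threshold 4.79% of all genes were lower. Cfd, or adipsin, a complement protease secreted by fat cells, was 6.21, 8.55, 4.47, 4.40 and 3.80 in the controls and 0.23, 1.15, 2.06, 0.11 and 5.77 in the exposed mice, a difference of -3.62 (SE 1.52, adjusted p = 0.478) that was not called. Without control replicate 2, the mouse with the highest fat and heart muscle markers, the median of the fat markers was -0.39, and that of the heart muscle markers turned from -0.46 to 0.31. In that fit all 4 called acute phase genes were called again, together with Orm2 at 2.89 (SE 0.52, adjusted p = 0.042). H2-Oa (adjusted p = 0.0505), Rftn2 (0.0976), Bcl6b (0.0976) and Ly6f (0.0995) were not. The part of heart and fat tissue in the other results was not tested.

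The position of 54 µg among the doses of NRCWE-030 was compared directly. Against 18 µg, 2 genes were called, both higher at 54 µg (0.0107%), Saa2 and Lcn2. Saa2 was between -0.06 and 0.91 at 18 µg, below the lowest mouse at 54 µg, and differed by 2.61 (SE 0.39, adjusted p = 0.0254). Lcn2 was between 1.20 and 3.06 at 18 µg, where 1 mouse lay above the lowest mouse at 54 µg, and differed by 2.25 (SE 0.34, adjusted p = 0.0254). Saa3 and Saa1 followed at 4.56 (SE 0.82) and 2.94 (SE 0.53), both with an adjusted p of 0.0776. Saa3 at 18 µg ran from -4.17 to 0.38 with a mean of -1.90 ± 1.70 (SD, n = 5). Both calls were lost when slide, or scan day, entered the fit as a fixed term, and in each of the 7 fits that left out replicate 1, 2, 3 or 5 at 54 µg or replicate 2, 4 or 5 at 18 µg. Without replicate 4 at 54 µg there were 13 calls, all higher and both genes among them, and without replicate 3 at 18 µg there were 8. At 18 µg against control a single gene was called (0.00536%), the aminopeptidase Dnpep, which was lower, and it is not among the 15.

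Against 162 µg no gene was called, with 1000 at an unadjusted p under 0.05 (5.36%) and a lowest adjusted p of 0.286, and the ordinary test also called 0. Saa3 was between 3.97 and 5.47 at 162 µg, so that exposed replicates 3 and 5 at 54 µg reached the range of the higher dose while replicates 1, 2 and 4 did not. The difference, 162 µg minus 54 µg, was 2.03 (SE 0.82, adjusted p = 0.848) for Saa3, 1.63 (SE 0.53, adjusted p = 0.657) for Saa1 and 0.63 (SE 0.34, adjusted p = 0.988) for Lcn2. Leaving out exposed replicate 5 gave 4 calls in place of 0. At 162 µg against the same controls 316 genes were called (1.69%). Of the 15 genes called at 54 µg, 12 were among them. All 15 differed from the controls in the same direction at 162 µg and at 18 µg. These comparisons share the control mice. Differences at 162 and 54 µg were 7.31 and 5.28 for Saa3, -0.13 and -0.53 for Plcl2, -0.43 and -0.91 for H2-Oa, and -0.32 and -0.47 for Hbp1. For 6 of the 15 genes, Saa1, Saa2, Saa3, Lcn2, Ly6f and Rftn2, the mean at 54 µg lay between those at 18 and 162 µg. The means of the other 9 were farthest from the controls at 54 µg. All 15 were chosen by their difference at 54 µg, which favours such an order, and none of them was called between 162 and 54 µg.

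**Figure D4:**
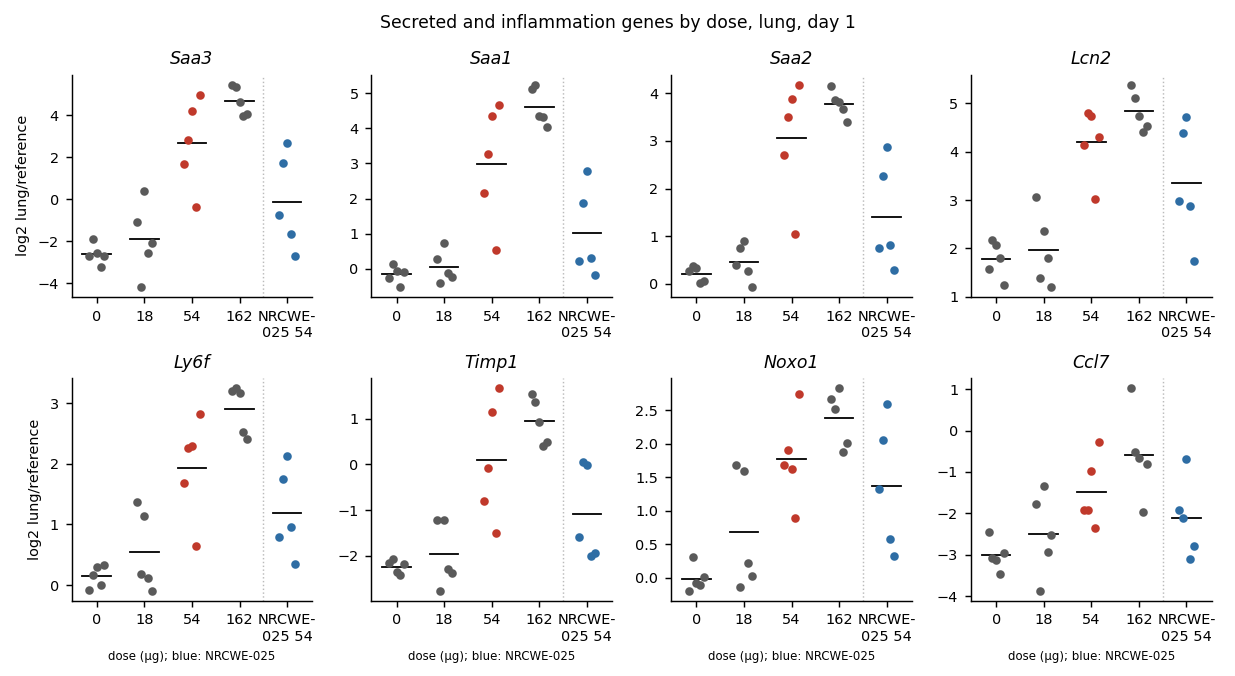
Log2 ratio of lung to reference (vertical axes, which differ between panels) on day 1 for 8 secreted or inflammation genes, by dose of NRCWE-030 in µg, with 54 µg in red and NRCWE-025 at 54 µg in blue to the right of the dotted line. Points are single mice, 5 per group, and lines are means. For Saa3 the mean goes from -2.62 in controls through -1.90 and 2.67 to 4.70 at 162 µg, and the blue points spread from -2.71 to 2.70.

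At the same dose of the other material the acute phase genes had lower means, but no acute phase gene was called between the materials. Saa3 at 54 µg of NRCWE-025 averaged -0.14 ± 2.28 (SD, n = 5), with 1 mouse at -2.71 and 1 at 2.70, and NRCWE-030 minus NRCWE-025 was 2.80 (SE 0.94, adjusted p = 0.559). Saa1 differed by 1.99 (SE 0.53, adjusted p = 0.244), Saa2 by 1.67 (SE 0.46, adjusted p = 0.334) and Lcn2 by 0.86 (SE 0.55, adjusted p = 0.935). In 1 fit of all groups 11 genes were called between the materials (0.0589%), 5 higher (0.0268%) and 6 lower (0.0322%) with NRCWE-030. Tspan4, a tetraspanin, was between 0.09 and 0.51 with NRCWE-030 and between -0.79 and -0.36 with NRCWE-025, a difference of 0.81 (SE 0.14, adjusted p = 0.00357). Per2 (0.69, adjusted p = 0.0127) and the related clock output gene Tef (0.44, adjusted p = 0.0492) were also higher, as was the kinase gene Map3k6 (1.14, adjusted p = 0.0461). Nxph3, a neurexophilin, had the lowest p, between 1.67 and 2.36 with NRCWE-030 and between 2.82 and 3.34 with NRCWE-025 (-0.96, SE 0.15, adjusted p = 0.000409). Of the 10 with the largest differences, Myom3 (-0.77), Wdr45 (-0.68), the cold-inducible RNA-binding protein gene Cirbp (-0.69), Eya1 (-0.71) and Igsf10 (-0.62) were lower too. NRCWE-025 at 54 µg against control gave 1 call (0.00536%), Egr2.

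The effect on day 1 was set against the effect of the same dose on day 28, each against the controls of its own day. For 9 genes the effects differed (0.0482%), the effect on day 1 being the higher one for 2 (0.0107%) and the lower one for 7 (0.0375%). Adamts9 was 0.57 above control on day 1 and differed by -0.54 from it on day 28 (adjusted p = 0.0105), a difference between effects of 1.11 (SE 0.14, adjusted p = 2.83e-06). Its level in the controls was 0.40 ± 0.20 (SD, n = 5) on day 1 and 1.14 ± 0.18 (SD, n = 5) on day 28. Myom3 differed by -1.12 on day 1 and 0.27 on day 28, and its controls stood at 2.25 ± 0.28 (SD, n = 5) and 1.60 ± 0.18 (SD, n = 5). H2-Oa (-0.91 and 0.47), Hbp1 (-0.47 and 0.11), Cirbp (-0.42 and 0.63), Grb7 (-0.58 and 0.18), Slc13a4 (-0.55 and 0.62) and Ccdc28a (-0.39 and 0.20) went the same way. Thbs1, a matricellular protein, was 0.41 above control on day 1 and differed by -0.36 on day 28. No acute phase gene was called in this test: the effect on Saa3 was 5.28 on day 1 and 1.85 (SE 0.94, adjusted p = 0.865) on day 28, and the difference of 3.44 (SE 1.33) had an adjusted p of 0.507.

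Saa3, the acute phase gene of bicluster-1, one of the gene sets the study drew from mouse models of lung disease, was also read in every group as a description. On day 1 the mouse with the median value stood at -2.68 in controls, and at -2.06, 2.83 and 4.63 with 18, 54 and 162 µg of NRCWE-030. With NRCWE-025 the medians were -2.82, -0.77 and 2.93. On day 28 they were -3.31 in controls, -3.66, -0.63 and -0.63 with NRCWE-030, and -2.53, -3.16 and -2.54 with NRCWE-025. The day 1 groups at 54 µg of NRCWE-030 and at 162 µg of either material overlapped in range, and neighbours in that order were not separated by their spread, since 54 µg ran from -0.39 to 4.98 and 162 µg of NRCWE-025 from -2.18 to 5.54. Of the 17 measured members of bicluster-1, Saa3 was the only one called at 54 µg, with 4 higher and none lower at an unadjusted p under 0.05 and a median of 0.04. Of the other sets of that kind, bicluster-2, bicluster-3, bicluster-7, bicluster-8, bicluster-9 and bicluster-10 were read and held no call. The remaining sets of the study were not read. At an unadjusted p under 0.05 bicluster-3 had 6 of 16 higher, bicluster-7 had 5 of 19 higher and 1 lower, and bicluster-8 had 5 of 15 higher. Beside all the bicluster counts at that threshold stand 3.97% higher and 4.79% lower over all genes. Bicluster-9, a set of muscle and metabolism genes that shares members with the heart muscle and fat markers, had 2 of 17 lower and a median of -0.46, which turned to 0.11 without control replicate 2, bicluster-10 had 3 of 16 lower, and bicluster-2, of cell division genes, had none of 18 in either direction.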

How the data were processed

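Each lung RNA, labelled with Cy5, was hybridised with Universal Mouse Reference RNA, labelled with Cy3, on 2-colour Agilent arrays with no dye swap, 1 array per mouse. The authors' scanner files, made with Agilent Feature Extraction 11.0.1.1, hold median intensity per spot and local background without correction, a log10 ratio of Cy5 over Cy3 and spot flags. The deposited series matrix holds log2 ratios after the authors' LOWESS, with background correction not given in the sources used here; against loess values without background correction its median slope was 0.993 over the arrays (0.865 on replicate 5 at 18 µg of NRCWE-030 on day 28), and it was used as an alternative. Here the local backgrounds marked as outliers by the scanner software were replaced by the median of the others on that array and channel, normexp (offset 50) and loess within arrays were applied, and control and outlier spots were left out. Spots were reduced to 41174 probes and probes to 18753 symbols by medians, and 18660 genes with a value on all 69 arrays were tested. Symbols came from matching the accession or name of each probe to RefSeq genes, and 66.8% of probes had a match. limma 3.58.1 (R 4.3.3) fitted the control, 18, 54 and 162 µg groups of NRCWE-030 on day 1. Contrasts between materials and between days came from 1 fit of all 69 arrays. P-values are two-sided with Benjamini-Hochberg adjustment over all genes. Only the limma test was run on simulated data, gene values with independent noise and no slide or scan day effect. It called 94 of 100 genes changed by 1 on the log2 scale and 100 of 100 changed by 2, with 16 false calls. The simulated noise of a gene had the same SD in every group. In the data the SD of Saa3 on day 1 was 0.48 in controls and 2.12 at 54 µg of NRCWE-030, a setting the simulation did not cover. The steps before the test were not simulated. The number of arrays limits the precision. Genes named are those called, then the largest differences at an unadjusted p under 0.05 without overlap up to 25 in all, and the members of each list with the smallest p. The members, the lists, the background replacement and the promoter patterns were chosen with earlier results of these data known. Alternatives covered the background, scanner and matrix values, scaling, probe choice, a filter on dim genes, slide and scan day as blocks, the test, the arrays in the fit and leaving out each array. Promoter windows are from RefSeq (GRCm38.p6).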

Additional observations from a re-analysis of the deposited data

Results flagged for a closer look

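In control replicate 3 Wdr45 was 1.65, below the other 4 controls by a gap of 0.739 of the group's range. In control replicate 1 Bcl6b was -0.21, with a gap of 0.763 of the range. These were 2 outlying values in 50 groups tested, where chance gives about 1 in 20.

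NRCWE-030 differed from NRCWE-025 at 54 µg on day 1 in 11 genes by limma's test with an adjusted p under 0.05. Of the 10 with the largest differences, Map3k6 (1.14), Tspan4 (0.81), Per2 (0.69) and Tef (0.44) were higher with NRCWE-030. Nxph3 (-0.96), Myom3 (-0.77), Eya1 (-0.71), Cirbp (-0.69), Wdr45 (-0.68) and Igsf10 (-0.62) were lower.

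The effect of 54 µg of NRCWE-030 differed between day 1 and day 28 in 9 genes by the same test of the difference itself. Day 1 minus day 28 was 1.11 for Adamts9 and 0.77 for Thbs1. It was -1.39 for Myom3, -1.38 for H2-Oa, -1.17 for Slc13a4, -1.05 for Cirbp, -0.76 for Grb7, -0.59 for Ccdc28a and -0.58 for Hbp1.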

How the results depend on the processing

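None of the 15 called genes changed direction against control under the alternatives run. Lcn2 was called in all 13 alternatives, Saa2 in 12, Saa3 in 11 and Saa1 in 9, but Emb, H2-Oa, Rftn2 and Bcl6b were called in only 6 of 13 and Adamts9 in 7. The count against control, 15, became 9 without background correction, 26 with the scanner's log ratio, 23 of 14177 genes with the filter on dim genes, 65 with slide as a fixed block, 118 with slide as a random block, 40 with scan day as a block, 9 with the ordinary test, 2 with only the groups compared and 100 with all 69 arrays. It stayed within 1.5 times under the other 4 settings, though the split of 8 higher and 7 lower became 12 and 3 with the matrix, 9 and 4 with outlier backgrounds kept, 9 and 6 with the brightest probe and 7 and 4 with scaling between arrays. Leaving out 1 array gave 3 (without control replicate 4) to 66 (without control replicate 3). Against 18 µg, the 2 calls became 1 with the scanner's log ratio, 4 with the brightest probe, 0 with slide as a fixed block, 0 with scan day as a block, 0 with the ordinary test and 0 with only the groups compared, 6 when slide was a random block, 12 with all arrays, and 0 to 13 without 1 array. Against 162 µg the count was 0 under all alternatives other than leaving out 1 array, where it ran from 0 to 4. Between materials, 11 became 3 with outlier backgrounds kept, 7 without background correction, 3 with the scanner's log ratio, 7 with the matrix, 5 with the brightest probe, 17 and 25 with slide as a fixed and a random block, 20 with scan day and 7 with the ordinary test, and 3 (without replicate 2 of NRCWE-025) to 21 (without replicate 3 of NRCWE-030) when 1 array was left out. Between days, 9 became 3 with outlier backgrounds kept, 5 without background correction, 21 with the scanner's log ratio, 3 with scaling, 150 and 122 with slide as a fixed and a random block and 70 with scan day, and 4 (without replicate 2 at 54 µg on day 28) to 28 (without day 28 control replicate 5) when 1 array was left out. The cause of these shifts was not tested. No paired analysis was possible because the replicate numbers only name the samples; the slides that held both groups are covered by the slide blocks and the differences within slides. Orm2, well above background in 1 of 5 controls, differed by 2.61 to 4.45 over the alternatives, and Ly6f by 1.76 to 2.95, both highest with the scanner's log ratio.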
